A study of Fundulus heteroclitus with 4 samples.

Results

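Mature microRNAs (miRNAs) of Atlantic killifish (Fundulus heteroclitus) embryos from New Bedford Harbor (NBH) were compared with those of embryos from Scorton Creek (SC), using a pool of embryos from 1 to 15 days after fertilisation (dpf) for each. The comparison used every library of that stage, 1 from NBH and 1 from SC, which is 2 of the 4 libraries of the series. Embryos of both populations were F1 offspring from gametes joined in vitro and were raised in sea water at 22 °C. The labels give no chemical exposure for either group. They do not say how many embryos, or what share of each day, went into a pool. The other 2 libraries held embryos of 12 dpf, a day that the pools also contained, and their values are given beside the pooled ones at the end. Each difference below is 1 library set against 1 other, so it has no replicate check and no test.

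miRNAs are short RNAs that guide Argonaute proteins to messenger RNAs and lower their translation or stability. Pairing depends mostly on the seed, bases 2 to 8 of the mature miRNA, so miRNAs with an identical seed are treated as a family with overlapping targets. Many are made from clustered genes that are transcribed as a single precursor. New Bedford Harbor is known for heavy contamination with polychlorinated biphenyls, to which its killifish have evolved tolerance, and Scorton Creek is a less contaminated site used as its comparison.

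The pooled NBH library held 1780462 deposited counts and the pooled SC library 1601093, each over 210 listed miRNAs. Counts were scaled by the trimmed mean of M-values (TMM), and levels are given as normalised counts per 1000000 (CPM). Entries that reached 10 counts in 2 or more of the 4 libraries were compared, and the 25 left out reached at most 23 counts in a pool. The log2 ratio is that of NBH over SC, with a pseudocount of 0.5, so a negative value means lower in NBH. Its 95% interval is the exact binomial interval of the pair of counts and covers counting error only. A difference of at least 2-fold whose interval excludes equality is a call, higher or lower. Names that several species share are followed by the species of the listed sequence (dre, zebrafish; fru and tni, pufferfish; ola, medaka). Identical reads, those that match the listed sequence exactly, were 56.2% of the NBH counts and 59.9% of the SC counts, and each call was checked in them. The remaining reads are variants in length or sequence, and the tables do not say which.

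The sequences below carry the main differences. They are printed 5′ to 3′ in DNA letters, as listed in the deposited tables, with the seed in capitals. The first set was called lower in NBH throughout and shares a seed.
miR-17a: cAAAGTGCttacagtgcaggta
miR-20a: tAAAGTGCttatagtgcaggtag
miR-20b: cAAAGTGCtcacagtgcaggtag
miR-93: aAAAGTGCtgtttgtgcaggta

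The second set comes from the miR-17-92 group of clusters too, but carries another seed, and none of its members was called lower by all reads.
miR-19a: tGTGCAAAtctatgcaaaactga
miR-19b: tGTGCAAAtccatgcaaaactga
miR-19c: tGTGCAAAtccatgcaaaactcg
miR-19d: tGTGCAAAcccatgcaaaactga

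The third set holds the miR-30 family and the miR-181 family, which held 6 of the 12 highest ratios described below.
miR-30b: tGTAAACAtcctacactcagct
miR-30c (dre): tGTAAACAtcctacactctcag
miR-30c (tni,fru): tGTAAACAtcctacactctcgg
miR-30d: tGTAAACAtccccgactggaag
miR-30e: tGTAAACAtccttgactggaag
miR-181a: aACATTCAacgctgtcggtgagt
miR-181b: aACATTCAttgctgtcggtggg
miR-181c: cACATTCAttgctgtcggtggg

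The fourth set holds single miRNAs with the lowest ratios, from different families, and the partner arm or partner miRNA of some.
miR-21: tAGCTTATcagactggtgttggc
miR-210: cTGTGCGTgtgacagcggctaa
miR-124: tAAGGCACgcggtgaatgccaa
miR-460 (dre-5p): cCTGCATTgtacacactgtgcg
miR-460 (dre-3p,fru,tni): cACAGCGCatacaatgtggatg
miR-214: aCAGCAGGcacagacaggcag
miR-199: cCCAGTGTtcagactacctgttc
miR-184 (dre): tGGACGGAgaactgataagggc

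Of the entries compared, 19 were called higher in NBH (9.9%) and 40 lower (20.8%), and 94 lay within 1.5-fold. The median log2 ratio was 0.08. The entries called higher took 18.5% of all NBH counts, against 7.71% of SC counts. Those called lower took 2.73% of NBH counts and 9.62% of SC counts. The median level over both pools was 1988 CPM for entries called higher, 185 CPM for those called lower and 1230 CPM for the rest. Among 50 entries under 100 CPM, 4 were called higher and 15 lower, and among 51 from 100 to 1000 CPM, 4 higher and 16 lower. Among 62 entries from 1000 to 10000 CPM, 7 were called higher and 6 lower, and among 29 above 10000 CPM, 4 higher and 3 lower. Scaling by total counts moved the median of all entries by -0.21 and gave 11 higher and 47 lower. The 8 higher calls lost by it were miR-19c, miR-30b, miR-30c (tni,fru), miR-153a, miR-200b, miR-301c, miR-454a and miR-728. Scaling without the 5 most abundant miRNAs moved it by 0.12 and gave 24 higher and 38 lower.

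**Figure D1:**
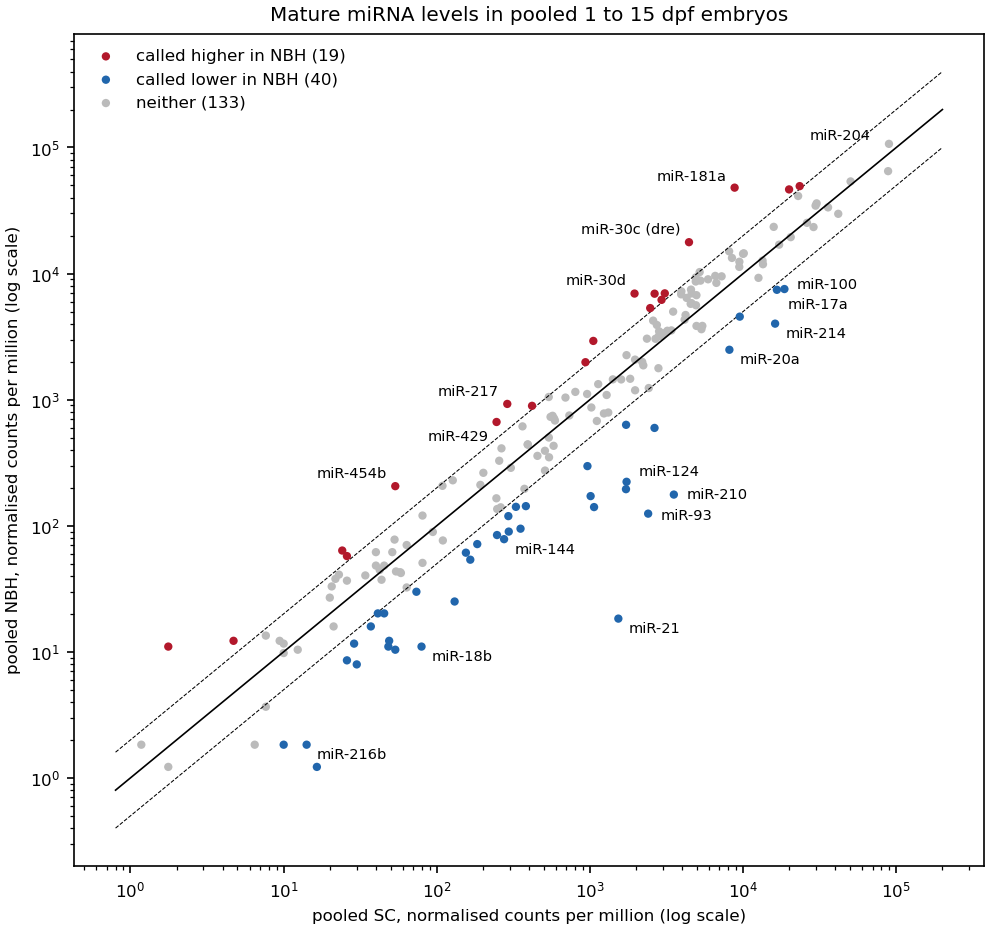
Level of each compared miRNA in the NBH pool (vertical axis) and the SC pool (horizontal axis), in normalised CPM on log scales. The solid line marks equal levels and the dashed lines a 2-fold difference; red points were called higher in NBH (19), blue points lower (40) and grey points neither.

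Of the 10 most abundant miRNAs by mean level over the pools, 2 were called higher in NBH and the other 8 lay within 2-fold. Together they held 45.6% of the NBH counts and 45.8% of the SC counts. The eye miRNA miR-204 came first, at 106861 CPM in NBH and 89568 CPM in SC. miR-130c stood at 64919 CPM in NBH and 88408 CPM in SC, and the skin miRNA miR-203a at 53809 CPM in NBH and 50293 CPM in SC. Those called higher were miR-19b and miR-301c. miR-103, which is expressed in many vertebrate tissues, fell just short of the threshold, with a log2 ratio of 0.85 (67439 counts in NBH and 38817 in SC). The log2 ratios of miR-125b, miR-10b, miR-130b and miR-99 were 0.26, 0.22, -0.10 and -0.49.

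Of the 154 entries with at least 100 counts in a pool, the 12 lowest ratios came from unrelated families as well as from the miR-17 seed. miR-21, which in mammals is raised in growth and tissue repair, had 30 counts in NBH and 2602 in SC, an 82.2-fold lower level. Few of its reads matched the listed sequence, 2 in NBH and 48 in SC, and in those alone its log2 ratio was -4.19. miR-210, the main miRNA induced by hypoxia through HIF in vertebrates, had 289 counts in NBH and 5992 in SC and was 19.9-fold lower. Its identical reads numbered 64 in NBH and 2598 in SC, a log2 ratio of -5.24 (interval -5.63 to -4.89). Both stood above 1000 CPM in SC and below 1000 CPM in NBH, and neither interval came near equality.

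miR-93 was 19.2-fold lower in NBH, at 124.8 CPM in NBH and 2399 CPM in SC. miR-460 (dre-5p), a miRNA described in fish and birds, had 319 counts in NBH and 2918 in SC. miR-124, the most characteristic miRNA of neurons, had 365 counts in NBH and 2944 in SC. Its log2 ratio of -2.96 (-3.12 to -2.80) became -2.18 in identical reads (-2.48 to -1.89), on 118 reads in NBH and 573 in SC. These 3 were called lower in identical reads too.

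miR-214, a miRNA of mesenchyme and developing muscle, was the most abundant of the 12, at 4008 CPM in NBH and 16174 CPM in SC (log2 ratio -2.01, and -2.24 in identical reads). miR-184 (dre), known from lens and cornea, had 976 counts in NBH and 4481 in SC. Most of its reads were identical to the listed sequence, 73.7% in NBH and 89.4% in SC, and the log2 ratio was -2.14 by all reads and -2.38 by identical ones. The other listed entry, miR-184 (tni), had 1941 counts in NBH and 3347 in SC and was not called by all reads (-0.73). In identical reads miR-184 (tni) was called lower (-1.01), and the summed counts of both entries gave -1.37. miR-216a (tni), a miRNA of the pancreas, stood at 25.1 CPM in NBH and 131 CPM in SC (log2 ratio -2.37). The remaining lowest ratios were those of miR-20b, miR-18b, miR-723 and miR-489. The last 2 had no identical read in either pool, so for miR-723 (281 counts in NBH, 1715 in SC) and miR-489 (94.8 CPM in NBH and 352 CPM in SC) the name rests on variant reads.

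The 12 highest ratios were smaller in size. miR-181a, which in mammals tunes lymphocyte signalling and is also expressed in the retina and brain, had the highest ratio of the 12. It had 78544 counts in NBH and 14938 in SC, a 5.46-fold higher level with a log2 ratio of 2.45 (2.42 to 2.47). Its identical reads, 63295 in NBH and 9880 in SC, gave 2.78. miR-217, a miRNA of the exocrine pancreas, had 1513 counts in NBH and 490 in SC, and 533 identical reads in NBH and 187 in SC (log2 ratios 1.68 and 1.61). miR-429, an epithelial miRNA, had 1088 counts in NBH and 417 in SC, with a log2 ratio of 1.44 and 1.88 in identical reads. Members of miR-30 and miR-19 made up 6 of the 12.

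The other 3 of the 12 had 9 or fewer identical reads in each pool. miR-454b had 337 counts in NBH and 91 in SC, of which 0 in NBH and 1 in SC were identical. miR-181c had 4781 counts in NBH and 1786 in SC, with 1 identical read in NBH and 0 in SC. miR-219, a miRNA of oligodendrocytes, had 104 counts in NBH and 41 in SC, with 9 identical reads in NBH and 8 in SC. None of these 3 had a direction in identical reads, since the intervals included equality. Variant reads also prevailed in miR-19c, miR-30c (dre) and miR-30e, each with fewer than 10% identical reads in both pools. Shares that low were found in 9 of the 19 entries called higher and 9 of the 40 called lower. In all reads miR-129, with 18 counts in NBH and 3 in SC, had a ratio of 2.45 over the wide interval of 0.86 to 5.04, and 1 identical read in NBH and 0 in SC.

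**Figure D2:**
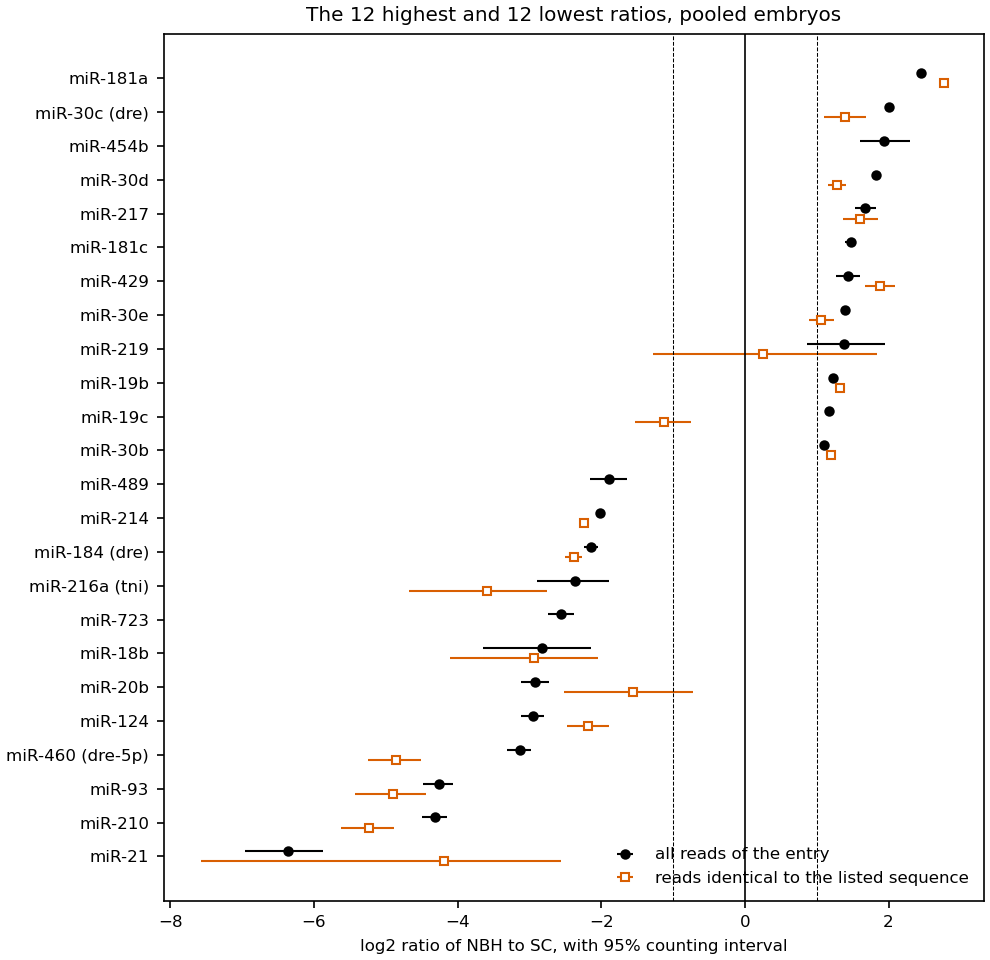
Log2 ratio of NBH over SC, with its 95% counting interval, for the 12 highest and 12 lowest miRNAs among those with at least 100 counts in a pool, by all reads (black) and, where both pools had some, by reads identical to the listed sequence (orange). The lowest ratios reach -6.36 (miR-21) and the highest 2.45 (miR-181a); miR-19c lies above 0 by all reads and below 0 by identical reads.

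Identical reads gave a value for 179 entries, and by them 21 were called higher in NBH (11.7%) and 36 lower (20.1%). Of the 19 higher calls, 10 were at least 2-fold higher in identical reads too, 1 was higher by less (miR-301c, 0.63), 5 had an interval that included equality and 2 had no such reads. The exception in direction was miR-19c, with 11396 counts in NBH and 5229 in SC, of which 0.684% in NBH and 3.50% in SC were identical, a log2 ratio of 1.18 by all reads and -1.13 by identical ones. Of the 40 lower calls, 26 were at least 2-fold lower in identical reads, 3 were lower by less, 7 had an interval that included equality and 3 had no such reads. The 7 without a direction there were let-7i, miR-15c, miR-133c, miR-137 (dre), miR-141, miR-142a and miR-363. miR-9, a neural miRNA, was lower by all reads (7449 counts in NBH and 16140 in SC; log2 ratio -1.06) and higher by identical ones (1543 reads in NBH and 1211 in SC; 0.45). In all, 40 of 59 calls had a direction in identical reads that was that of all reads. Of the entries that were neither by all reads, 20 were called by identical reads, 11 higher and 9 lower.

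The miR-17 seed and the miR-19 seed differed in opposite directions, although in other vertebrates both are cut from the same miR-17-92 transcripts, which promote cell proliferation. All 4 entries with the seed of miR-17 were called lower in NBH, with a median log2 ratio of -2.31, against 0.08 over all entries compared. Their summed level was 10189 CPM in NBH and 28214 CPM in SC. miR-17a, the most abundant, had 12159 counts in NBH and 28205 in SC (log2 ratio -1.16). miR-20a had 4068 counts in NBH and 13811 in SC (-1.71), and miR-20b had 230 in NBH and 1806 in SC (-2.92). Each of the 4 was also called lower under each other scaling tried and in identical reads, where the median was -2.52 (3137 reads in NBH and 19528 in SC).

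The 4 miR-19 entries had a summed level of 78761 CPM in NBH and 36345 CPM in SC, with a median log2 ratio of 1.08. miR-19b, with 76041 counts in NBH and 33879 in SC, and miR-19c were called higher (1.22 and 1.18). miR-19a (24552 counts in NBH and 13758 in SC; log2 ratio 0.89) and miR-19d (16805 counts in NBH and 8832 in SC; 0.98) were just under the threshold. Total-count scaling left 1 of the 4 called and scaling without the 5 most abundant called all 4. In identical reads 3 were called higher, miR-19a at 1.53, miR-19b at 1.33 and miR-19d at 1.09, while miR-19c was called lower.

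The third seed of these clusters, that of miR-18, was near equality in its abundant members by all reads. miR-18a had 5485 counts in NBH and 5109 in SC, and miR-18c had 5754 in NBH and 5435 in SC. The rare miR-18b had 18 counts in NBH and 135 in SC and was called lower (-2.82, and -2.93 in identical reads). Of the 4 entries with the seed of miR-25 and miR-92, miR-92a had a log2 ratio of -0.56 (5922 counts in NBH and 9071 in SC), miR-25 of 0.14 and miR-92b of -0.87. miR-363 was called lower on 2 counts in NBH and 28 in SC, at -3.46 over an interval of -6.87 to -1.77, with 1 identical read in each. Over all 15 members of these clusters, 2 were called higher, 6 lower and 7 neither by all reads. In identical reads 3 were called higher and 8 lower, with a median of -1.11. By all reads the median log2 ratio was -0.56, while that of the summed counts was 0.37, of opposite sign. The miR-19 entries held 128794 of the 168313 summed counts in NBH and 61698 of the 134933 in SC.

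**Figure D3:**
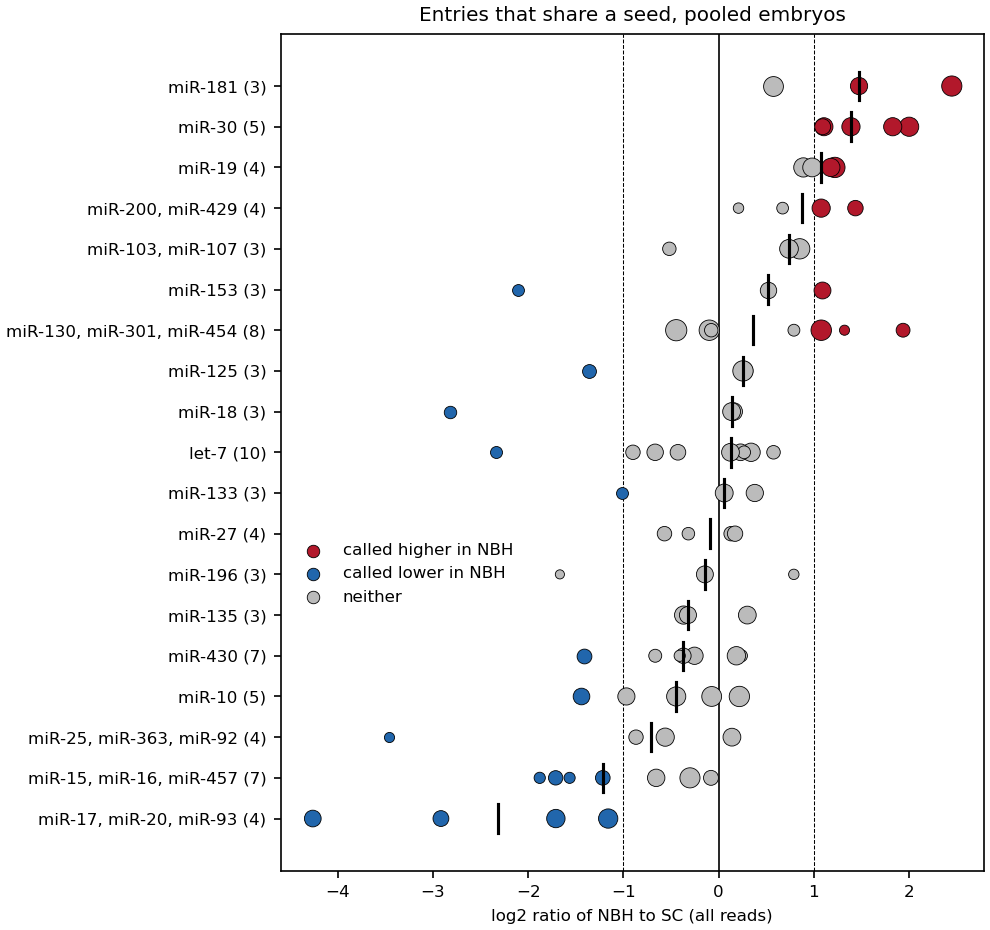
Log2 ratio of NBH over SC for each miRNA, grouped by shared seed, with red points called higher in NBH, blue points lower and grey points neither; larger points are more abundant, short black bars mark the median and dashed lines a 2-fold difference. All 5 miR-30 entries lie above 1 and all 4 entries with the seed of miR-17 lie below -1.

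All 5 compared miR-30 entries were called higher in NBH, with a median log2 ratio of 1.39 and a summed level of 37826 CPM in NBH and 11924 CPM in SC. In zebrafish miR-30 is needed for bile duct development. miR-30c (dre) had 29009 counts in NBH and 7524 in SC (log2 ratio 2.001), and miR-30d had 11353 in NBH and 3319 in SC (1.83). miR-30e had 11324 counts in NBH and 4487 in SC. The best identified member was miR-30b, whose reads were 94.0% identical in NBH and 91.1% in SC, and there its 8184 reads in NBH and 3826 in SC gave a log2 ratio of 1.19. The 4 members with identical reads were all called higher in them, at 1.07 to 1.39, and miR-30c (tni,fru) had none. Fewer than 10% of the reads of miR-30e and miR-30c (dre) were identical, and the tables do not say how variant reads were divided between relatives. Under total-count scaling 3 of the 5 were called.

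The 3 miR-181 entries had a median log2 ratio of 1.47 and a summed level of 74424 CPM in NBH and 25689.7 CPM in SC. miR-181a and miR-181c were called higher and miR-181b was not, at 38376 counts in NBH and 26886 in SC (log2 ratio 0.57). In other vertebrates miR-181a and miR-181b are cut from shared transcripts. Of the reads counted as miR-181b only 18 in NBH and 270 in SC were identical to its listed sequence, so nearly all its reads were variants. By those identical reads miR-181b was called lower in NBH, at -3.77 (-4.59 to -3.12). In identical reads miR-181a was thus the only member called higher.

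The broadly expressed miR-15 and miR-16 family, which restrains the cell cycle in mammals, tended to the lower side through its rarer members. With the seed shared by miR-16 and miR-457, 4 of 7 entries were called lower and none higher (median -1.22). These were miR-457a (147 counts in NBH and 501 in SC; log2 ratio -1.71), miR-457b (13 counts in NBH, 51 in SC), miR-16c (231 in NBH, 558 in SC) and miR-15b (dre) (14 in NBH, 44 in SC). Each kept its direction at 2-fold or more in identical reads. By listed sequence, miR-16c differs by 1 base from miR-16b, and miR-15b (dre) by 1 base from miR-15b (fru,tni). Whether misread reads of these abundant relatives were counted for them was not tested. miR-16b, which held most of the family's reads, was near equality at 38244 counts in NBH and 48919 in SC (-0.30), and the family's summed counts gave -0.34.

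Other families also paired a less abundant member called lower with an abundant one near equality. miR-125c had 117 counts in NBH and 312 in SC (log2 ratio -1.36), whereas miR-125b, of identical seed, stood at 0.26. miR-203b had 486 counts in NBH and 1635 in SC (-1.70), and miR-203a stood at 0.10. miR-22b had 20 counts in NBH and 83 in SC (-1.97), and miR-22a stood at 0.05. In these 3 less abundant members the identical reads gave -1.34, -1.81 and -2.52. miR-126b (33 counts in NBH and 77 in SC; -1.16) and miR-15c (3 counts in NBH and 17 in SC, interval -4.86 to -0.66) were called lower too, beside miR-126 at 0.39 and miR-15b (fru,tni) at 0.52. The listed sequences of miR-125c and miR-203b lay 1 edit (a base changed or added) from their abundant relative. Those of miR-22b and miR-126b lay 2 edits away. Whether misread reads of the abundant relative were counted for these members, also among identical reads, was not tested. No read of miR-15b (fru,tni) was identical to its listed sequence in either pool, so that name rests on variant reads. let-7i was the single let-7 entry called, with 17 counts in NBH and 91 in SC, and the other 9 ranged from -0.90 to 0.58. let-7 miRNAs promote differentiation and rise late in development in many animals, and their summed level was 11965 CPM in NBH and 10992 CPM in SC. When counts were summed by seed, let-7i, miR-18b, miR-22b, miR-125c, miR-126b, miR-133c, miR-141, miR-153c, miR-15c and miR-203b came to lie in sums above equality.

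miR-130, miR-301 and miR-454 share a seed, and their 8 entries summed to 148188 CPM in NBH and 147895 CPM in SC. Within that nearly equal sum, miR-301c was called higher, with 80765 counts in NBH and 39735 in SC (1.08), and the most abundant, miR-130c, stood at -0.45. miR-454b, given above, and miR-454a were called higher, miR-454a on 20 counts in NBH and 8 in SC. Under total-count scaling 1 of these 3 calls was left. In identical reads no entry of the family was called higher, and the median was -0.76 over the 7 with a value. There miR-301c stood at 0.63 and miR-301a was called lower, on 1 read in NBH and 12 in SC (-2.98). miR-454a had no identical read in either pool. The miR-103 and miR-107 entries had a median of 0.74 and no call by all reads, and miR-107 was called higher in identical reads (1.32). Among miR-100 and miR-99, which accompany let-7 and miR-125 in clusters, miR-100 was called lower, with 12329 counts in NBH and 31581 in SC (-1.30), and miR-99 was not, at 48700 in NBH and 70943 in SC (-0.49). In identical reads their ratios were -1.96 and -0.96. No entry was called in the lists of miR-23, miR-24 and miR-27, of miR-26, of miR-29, of miR-34, of miR-146, of miR-148 and miR-152, or of miR-221 and miR-222, whose medians ran from -0.49 to 0.64.

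Early-embryo and patterning miRNAs were near equality in their summed levels. miR-430, which clears maternal messenger RNAs in early zebrafish embryos, summed to 8120.5 CPM in NBH and 8183 CPM in SC over 7 entries. At 12 dpf the sums were 2202 CPM in NBH and 854 CPM in SC, so each pool held more of this early marker than the 12 dpf library of its population. miR-430c (ola) was the single member called, lower, with 234 counts in NBH and 648 in SC and no identical read. The miR-10 and miR-196 miRNAs, which lie within Hox clusters, summed to 66586 CPM in NBH and 68532 CPM in SC. Of these 8, miR-10a was called lower, at 1033 counts in NBH and 2923 in SC (-1.45; identical reads -1.28), and no other was called by all reads. In identical reads miR-10b was called lower too (-2.74) and miR-10d (tni,fru) higher (1.60). That higher call rests on 89 reads in NBH and 31 in SC, which were 4.40% and 0.754% of the reads of miR-10d (tni,fru). By all reads its ratio was of opposite sign, at -0.97 (2022 counts in NBH and 4109 in SC). Total-count scaling called 3 of the 8 lower.

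miRNAs that mark tissues were present in both pools, and the summed level of each of the 8 tissue lists lay within 1.5-fold between them. In such whole-embryo RNA, fewer cells of a type and less of a miRNA per cell cannot be told apart. The muscle list (miR-1, miR-133, miR-206 and miR-499) summed to 25346 CPM in NBH and 22998 CPM in SC. Of its 6 entries only miR-133c was called by all reads, lower, on 33 counts in NBH and 70 in SC, and its identical reads gave no direction. miR-1 stood at -0.18 and miR-206 at 0.87. In identical reads miR-206 was called higher (1.12) and miR-133a lower (-1.70). The eye and sensory list summed to 120186 CPM in NBH and 102606 CPM in SC, with miR-184 (dre) the single call of 8 by all reads. miR-183, miR-96 and miR-182 of sensory hair cells and photoreceptors were not called by all reads, at 0.59, 0.59 and, for the abundant arm of miR-182, 0.18. In identical reads miR-183 was called higher (1.14), and miR-182 (dre-5p) and miR-184 (tni) lower (-2.96 and -1.01).

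In the neural list 2 of 12 were called higher, 4 lower and 6 neither, where all entries compared gave 9.9% higher and 20.8% lower. Whether these counts set the list apart was not tested. The list had a median of -0.03, or 0.095 when scaling left out the 5 most abundant. Its higher calls were miR-153a (3241 counts in NBH and 1587 in SC; log2 ratio 1.08) and miR-219. miR-124, miR-9, miR-153c (18 counts in NBH, 82 in SC) and miR-137 (dre) (26 in NBH, 63 in SC) were called lower. In identical reads 1 of the 12 was called higher (miR-153a) and 2 lower (miR-124 and miR-153c). The listed sequences of miR-153c and miR-137 (dre) each differ by 1 base from a more abundant relative. The abundant neural miR-128 and miR-138 stood at -0.08 and 0.65. The summed level of the list was 35138 CPM in NBH and 36254 CPM in SC.

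Epithelial miRNAs had a median of 0.67, with 2 of 9 called higher and 2 lower. The shares over all entries compared were 9.9% higher and 20.8% lower, and the list was not tested against them. miR-200b, which keeps epithelial cells from becoming mesenchymal in mammals, had 10121 counts in NBH and 4982 in SC (1.08, and 1.21 in identical reads), and miR-429 of the same seed was described above. miR-203b and the rare miR-141 (-1.29) were called lower. miR-205 stood at 0.71 and miR-200a at 0.71. In identical reads miR-205 was called higher (1.33) and miR-200a was not (0.59). Under total-count scaling 1 of the 9 was called higher.

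In the liver, gut and pancreas list, miR-375 had 321 counts in NBH and 634 in SC. It was not called by all reads (-0.93) or in identical reads (-0.87). The pancreatic miR-217, miR-216a (tni) and miR-216b parted. miR-217 was called higher, while miR-216a (tni) and miR-216b (3 counts in NBH and 24 in SC, interval -5.32 to -1.23) were called lower. miR-122, the main miRNA of hepatocytes, had 3261 counts in NBH and 3724 in SC (-0.14), and miR-192 of gut and liver stood at 0.54. Of the blood miRNAs, the erythroid miR-144 was called lower at 78.3 CPM in NBH and 275 CPM in SC (-1.81, and -2.99 in identical reads). The leukocyte miR-142a was called lower too, at 19 counts in NBH and 49 in SC. Its relative miR-142b (tni), 1 edit away by listed sequence, had 79 counts in NBH and 68 in SC (0.27). In identical reads miR-142b (tni) was called higher (1.24, on 25 reads in NBH and 11 in SC). The summed counts of miR-142a and miR-142b (tni) gave -0.20, over an interval of -0.60 to 0.20. The erythroid miR-451 stood at 0.52 and the myeloid miR-223 at 0.58. miR-126, of endothelium, had 20291 counts in NBH and 16048 in SC (0.39), of which 3.30% in NBH and 3.20% in SC were identical. miR-145, of smooth muscle, stood at 0.82. In the skeletal and mesenchymal list, summed to 35021 CPM in NBH and 46836 CPM in SC, the cartilage miRNA miR-140 stood at 0.34 and miR-214 was the single call of 3.

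Of 20 miRNAs with names first given in fish, 5 were called lower and 1 higher, a median of -0.34. Over all entries compared, 20.8% were called lower and 9.9% higher, and whether the list differs from them was not tested. miR-462, induced by interferon in fish, had 195 counts in NBH and 498 in SC (-1.30; identical reads -2.41). miR-730 (84.4 CPM in NBH and 247 CPM in SC) and miR-724 (100 counts in NBH and 263 in SC) were called lower by all reads and by less than 2-fold in identical ones (-0.42 and -0.78). miR-728 was called higher with 94 counts in NBH and 44 in SC, of which 0 in NBH and 1 in SC were identical. The most abundant of the list, miR-2188, stood at 0.52 (23676 counts in NBH and 17146 in SC). Outside all these lists, miR-187 (88 counts in NBH and 281 in SC; -1.62) was called lower too, with 3 identical reads in NBH and 23 in SC. It and miR-22b were chosen after their values were seen.

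miRNAs that come from a shared transcript in other vertebrates did not always differ alike. Of 14 such pairs, 7 had log2 ratios less than 1 apart and 7 more, with a median gap of 0.98. Close pairs by all reads included miR-221 with miR-222 (0.16 and 0.08), miR-1 with miR-133a (-0.18 and 0.06), miR-200a with miR-200b and miR-182 with miR-183. In identical reads miR-221 and miR-222 stood at 0.93 and 0.06, and miR-200a and miR-200b at 0.59 and 1.21. There miR-1 and miR-133a were farther apart, at -0.01 and -1.70, as were miR-182 (dre-5p) and miR-183, at -2.96 and 1.14. By all reads the widest gap was that of miR-216b with miR-217, at -2.76 and 1.68. miR-144 and miR-451 stood at -1.81 and 0.52, and miR-462 and miR-731 at -1.30 and 0.55. miR-199 had 41303 counts in NBH and 44335 in SC and was near equality (-0.05, and -0.05 in identical reads), whereas its partner miR-214 was called lower. Whether these pairs share a transcript in killifish was not examined here.

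The arms of the miR-460 hairpin parted as well. The 5p arm was called lower, as given above, while the 3p arm had 61 counts in NBH and 74 in SC (log2 ratio -0.22), none of them identical to the listed sequence. The 3p arm thus made up 16.1% of the hairpin's reads in NBH and 2.47% in SC. For miR-182 the 3p arm made up 9.37% in NBH and 8.35% in SC, and neither arm was called by all reads (0.36 and 0.18).

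Several miRNAs differed in the share of their reads that were identical to the listed sequence. In 94 entries with at least 1000 counts in each pool, the median share of identical reads was 39.2% in NBH and 41.7% in SC, and 57 entries had shares within 5 percentage points. The threshold of 20 points below was chosen after the values were seen. In 7 entries the share was at least 20 points lower in NBH. miR-182 (dre-5p) had 4.13% identical reads in NBH and 37.5% in SC, although its totals were 5187 counts in NBH and 4764 in SC. By identical reads it was called lower in NBH (-2.96). miR-20a had 26.6% in NBH and 57.5% in SC, and miR-17a of the same seed 16.5% in NBH and 36.7% in SC. miR-100 had 49.0% in NBH and 79.6% in SC, and miR-99 of the same seed 56.0% in NBH and 80.1% in SC. The others were miR-451 (52.1% in NBH, 74.3% in SC) and miR-135c (33.8% in NBH, 54.0% in SC).

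In 4 entries the share was at least 20 points higher in NBH. These were miR-19a with 79.0% in NBH and 52.3% in SC, miR-101a with 36.0% in NBH and 13.3% in SC, miR-205 with 62.1% in NBH and 41.5% in SC, and miR-107 with 66.1% in NBH and 45.6% in SC. Where identical reads were rare, small shares could still differ by a large factor. miR-10b had 56512 counts in NBH and 50454 in SC but 526 identical reads in NBH and 3754 in SC, a log2 ratio of 0.22 by all reads and -2.74 by identical ones.

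**Figure D4:**
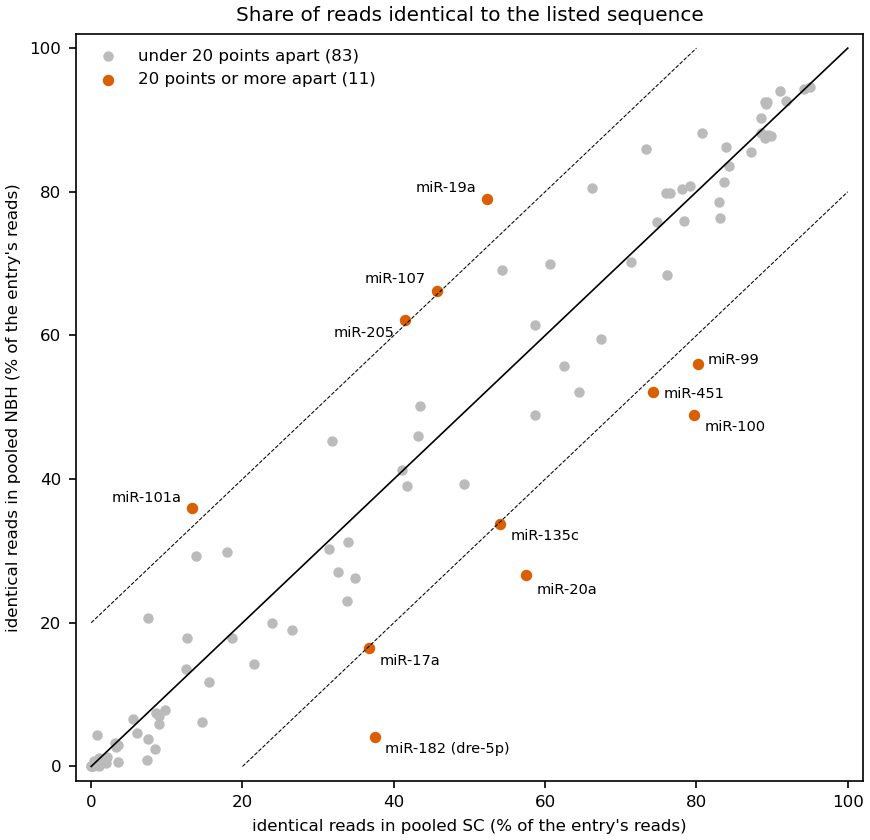
Share of reads identical to the listed sequence in the NBH pool (vertical axis) and the SC pool (horizontal axis), in percent, for the 94 miRNAs with at least 1000 counts in each pool. The solid line marks equal shares and the dashed lines 20 percentage points; the 11 named orange points lie 20 points or more apart, 7 of them lower in NBH and 4 higher.

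The listed sequences of the called miRNAs were alike in median length, while GC content and first base varied between the sets. These differences were not tested. The median length was 22 bases in the higher, lower and uncalled entries. The median GC content was 40.9% for entries called higher, 45.5% for those called lower and 42.9% for the others. A first base of T, the base that Argonaute holds most readily as U, began 73.7% of those called higher, 57.5% of those called lower and 69.9% of the others. Another listed miRNA lay within 2 edits of the sequence for 13 of the 19 called higher, 20 of the 40 called lower and 55.2% of all compared.

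Set beside the 12 dpf libraries, the pooled difference had another make-up. At 12 dpf 46 of 191 entries were called higher in NBH (24.1%) and 26 lower (13.6%). Of the 19 entries higher in the NBH pool, 5 were also called higher at 12 dpf (miR-19b, miR-19c, miR-30d, miR-181a and miR-181c), 4 were called lower and 10 neither. Of the 40 lower in the NBH pool, 1 was called lower at 12 dpf (miR-489), 17 higher and 21 neither, and miR-22b had no ratio there. miR-21 had 2744 counts in NBH and 5030 in SC at 12 dpf (log2 ratio -0.73), and miR-210 had 14547 in NBH and 17352 in SC (-0.11). miR-460 (dre-5p) had 1234 in NBH and 2241 in SC (-0.72), and miR-214 had 24892 in NBH and 43104 in SC (-0.65). For these 4 the NBH pool was the lowest of the 4 libraries.

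The miR-17 seed showed no such call at 12 dpf: miR-17a had a log2 ratio of -0.16 and miR-20a of 0.49, and miR-20b and miR-93 were called higher there, at 1.27 and 1.81. Every miR-19 entry was called higher at 12 dpf, at 1.08 to 1.48. Of the miR-30 entries, miR-30d was called (1.13) and the others ranged from -0.58 to 0.73. miR-124 had 21133 counts in NBH and 455 in SC at 12 dpf, the opposite of the pools. In the 40 entries called lower, the NBH pool had the lowest of the 4 levels in 19, and the SC pool had the highest in 30. In the 19 called higher, the SC pool had the lowest level in 16 and the NBH pool the highest in 6. The calls fixed the order of the pools beforehand, so these counts describe the called entries and are no separate support. The same counts over all compared entries were not taken.

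**Figure D5:**
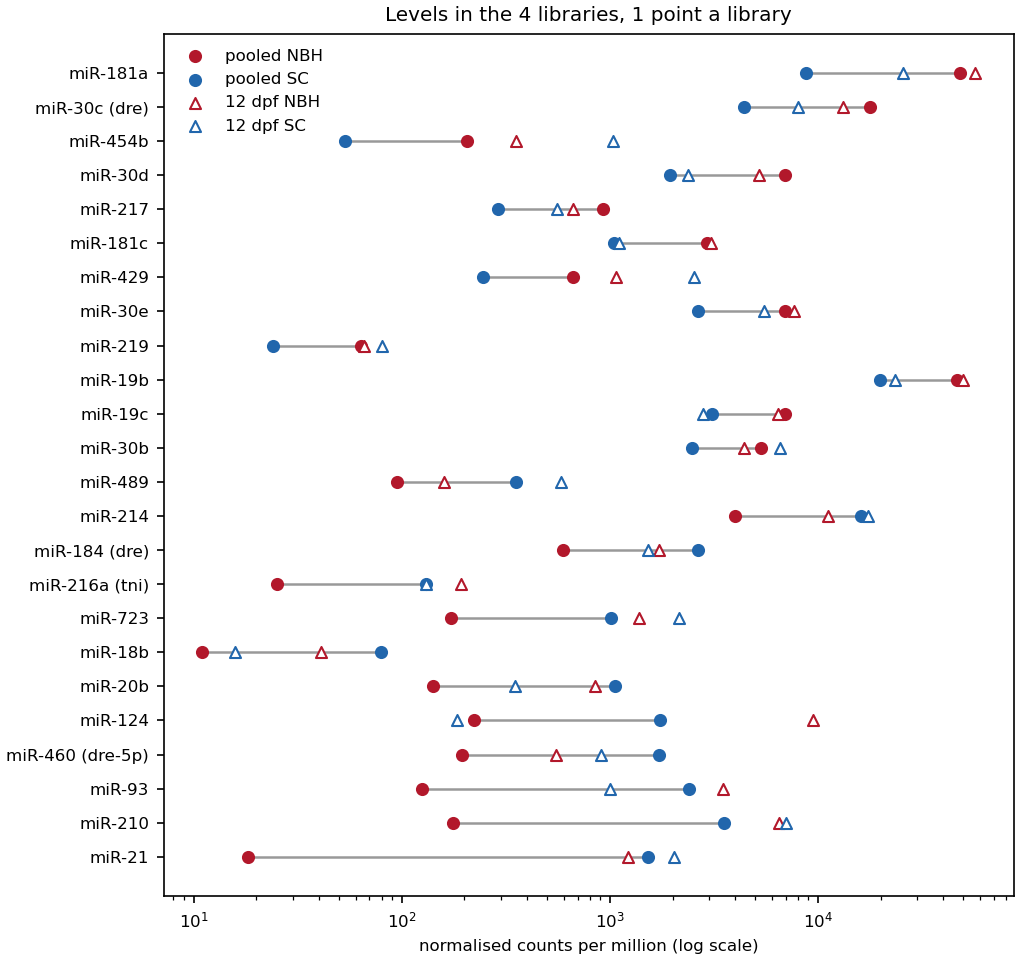
Level of the miRNAs with the 12 highest and 12 lowest pooled ratios in the 4 libraries, in normalised CPM on a log scale, with NBH and SC of the pooled stage (circles) beside NBH and SC at 12 dpf (triangles), NBH in red and SC in blue. miR-21 and miR-210 are lowest in the NBH pool, and miR-124 is lower in the NBH pool than in the SC pool but higher in NBH than in SC at 12 dpf.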

How the data were processed

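Small RNA of total RNA was sequenced on a SOLiD V3 system after library preparation with Applied Biosystems' SREK kit, per the labels' protocols. For each library the authors deposited raw read counts per mature miRNA, not normalised, and beside them how many were exact matches, per the file headers. The aligner, its settings and the miRNA release were not given in the sources used here. Tables were joined by sequence, and miR-27c and miR-92a by name, because the pooled SC table lists miR-27c with the sequence of miR-218b and miR-92a with 1 base fewer. An entry that a table does not list was set to 0. TMM factors (edgeR 4.0.16, R 4.3.3) were taken over 4 libraries for the 192 entries with at least 10 counts in 2 of them, and separately for identical reads. Intervals and ratios were computed in Python 3.11.15 with scipy 1.17.1 and tested on simulated counts. The simulated counts held counting error alone, so that test does not cover variation between libraries or pools. Of 217 joined entries 25 were left out. Reads are not independent molecules.

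The miRNAs compared and the 28 lists were chosen with earlier results of these data known. Those named are list members, the top 10 by mean level, the 12 ratios at each end among entries with 100 counts in a pool, calls reversed in identical reads, and calls made at 12 dpf too. Alternatives were total counts, DESeq2 1.42.0 size factors, TMM over the 2 pools, scaling without the 5 most abundant, a filter at 100 counts or none, a larger pseudocount (5), identical reads and sums by seed.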

Additional observations from a re-analysis of the deposited data

Results flagged for a closer look

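For 21 miRNAs called in the pools, the 12 dpf libraries gave a call in the opposite direction. These were 17 of the 40 lower in the NBH pool and 4 of the 19 higher. Over all 191 entries with a ratio at 12 dpf, 24.1% were called higher and 13.6% lower. Of the 21, 8 had under 100 counts in both pools. These differences between stages were not tested, and each side of each rests on 1 library. The log2 ratios of NBH over SC at 12 dpf are given here, beside pooled calls described above. Of those lower in the NBH pool, the ones furthest on the other side at 12 dpf were miR-462 at 5.76 (319 counts in NBH, 6 in SC), miR-124 at 5.68 (21133 in NBH, 455 in SC) and miR-144 at 4.98 (272 in NBH, 9 in SC). miR-9 stood at 2.93, miR-730 at 2.78, miR-430c (ola) at 2.46 and miR-216b at 2.06. Of the miR-17 seed, miR-93 stood at 1.81 and miR-20b at 1.27. The others were miR-15c at 1.72, miR-126b at 1.40, miR-133c at 1.38, miR-18b at 1.37, miR-724 at 1.37, miR-153c at 1.29, miR-137 (dre) at 1.23 and miR-457a at 1.09. Of those higher in the NBH pool, miR-429 stood at -1.24, miR-728 at -1.29, miR-454b at -1.54 and miR-129 at -2.35. The pools contain 12 dpf embryos, and their share of the pooled RNA is not given in the labels.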

How the results depend on the processing

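The 59 calls kept their direction under every change of scaling, filter and pseudocount. The largest shift of the median by a scaling was -0.21, smaller than the 2-fold difference a call needs, so no scaling could reverse a call. DESeq2 size factors, TMM over the pools alone and no count filter kept all 59, and scaling without the 5 most abundant and a pseudocount of 5 kept 57 each. A filter of 100 counts kept the 44 calls it could reach. Total counts kept 51, with 11 higher in place of 19. Sums by seed gave 8 higher and 17 lower. In them the log2 ratio was of opposite sign for let-7i (0.12), miR-125c (0.25), miR-126b (0.39), miR-133c (0.17), miR-141 (0.68), miR-153c (0.82), miR-15c (0.51), miR-18b (0.13), miR-203b (0.078) and miR-22b (0.042), which follows from the more abundant relatives in each sum. Identical reads gave the same call for 36 of the 54 with a value. There the sign was opposite for miR-19c (-1.13, or -1.17 with the factors of all reads), miR-363 (0.065 and 0.036), miR-454b (-1.55 and -1.57, on 1 read), miR-728 (-1.55 and -1.57, on 1 read) and miR-9 (0.45 and 0.40), and the cause was not tested. Depth limits the rare miRNAs, whose intervals are wide, as for miR-363 and miR-129. No paired analysis was possible because each group has 1 library.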
